A study of Mus musculus with 6 samples.

Results

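The Rab GTPases are the largest branch of the Ras superfamily of small GTP-binding proteins, and their transcripts were followed in mouse microglial cells after a short exposure to adenine. Members were all array probes whose platform symbol is RAB, a number and at most one letter, optionally with a further number, without regard to their values. The rule found 65 probes for 56 genes, out of 26423 probes on the array, of which 20377 carry a gene symbol. Of the Rab genes, 47 had 1 probe and 9 had 2 probes. Probe 1 of such a gene is its brighter probe and probe 2 its dimmer one.

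BV2 cells, an immortalised line derived from mouse microglia, were left untreated (control) or given a lower or a higher dose of adenine, a purine base, for 1 h. RNA of each group was hybridised to 2 single-colour arrays, 6 in all. The doses are uncertain, since 20 and 80 µM stand in the titles and the treatment protocol but 80 and 250 µM in the characteristics, and only their order is used here. BV2 is 1 line and carries no other alteration in the labels, and no label ties each array to a culture of its own within its group, so that the p-values may measure technical spread only.

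A Rab switches between a GDP-bound form, which GDP dissociation inhibitors hold in the cytosol, and a GTP-bound form, which sits on a membrane and recruits effectors. Exchange factors turn it on, GTPase-activating proteins turn it off, and a prenyl group anchors it. Each Rab marks particular membranes, and in microglia and other macrophages Rabs of the early and late endosome order the uptake and digestion of particles.

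Values are intensities in array units, made comparable between arrays by quantile normalization. Changes are differences of log2 values with their standard error (SE) from limma, fitted over all probes, with n = 2 arrays per group, and a probe passed at a Benjamini-Hochberg adjusted p of at most 0.05 over all 26423 probes. Of the 65 Rab probes, 50 (44 genes) averaged above the median probe of the array, which lay at 142 units, and 15 did not. Deposited array medians ranged from 125 to 170 units. The higher-dose pair stood apart from the other 4 arrays: Pearson's r over probes above the median was 0.9894 within the pair, 0.9287 to 0.9406 between it and the others, and 0.9782 to 0.9858 among the others. Of 12 listed markers of microglia and macrophages 10 were measured and 9 lay above the median probe. Cx3cr1, the fractalkine receptor typical of microglia in the brain, lay below it.

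At the higher dose against control, 5 Rab probes rose and 2 fell. Rab4b, Rab4a, Rab5c and Rab20, all Rabs of the early endosome or phagosome, rose 1.79- to 2.54-fold, as did probe 1 of Rab11a, while Rab1 and Rab27b fell 2.16-fold and 2.02-fold. The 7 probes are 10.8% of the Rab probes, against 10.6% of all probes that passed in either direction, 5.55% that rose and 5.06% that fell. Among probes above the median probe the share was 14.0% of the Rab probes and 17.0% of all. As a family, then, Rab probes passed about as often as probes at large, and the median Rab change of -0.03 lay beside a median of -0.01 over all probes. The middle part of the Rab changes, between the quartiles of -0.30 and 0.40, was about as wide as that of all probes, -0.38 to 0.37. At an unadjusted p under 0.05 by limma, 18 of the 65 Rab probes differed, a share like that of all probes (7683 of 26423).

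These calls rest on few arrays. None of the 7 passed when any 1 control or higher-dose array was left out, and in these fits calls over all probes also dropped, to between 6 and 30, against 2803 with all arrays. Without either lower-dose array Rab4b and Rab27b passed, beside 1583 to 1589 of all probes. With arrays scaled to equal medians 5 of the 7 passed, and Rab1 (adjusted p = 0.0646 by limma) and Rab27b (0.0559) did not. On values as deposited, with no normalization between arrays, 2 probes passed (2 higher, 0 lower), beside 1195 higher and 943 lower of all probes.

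**Figure D1:**
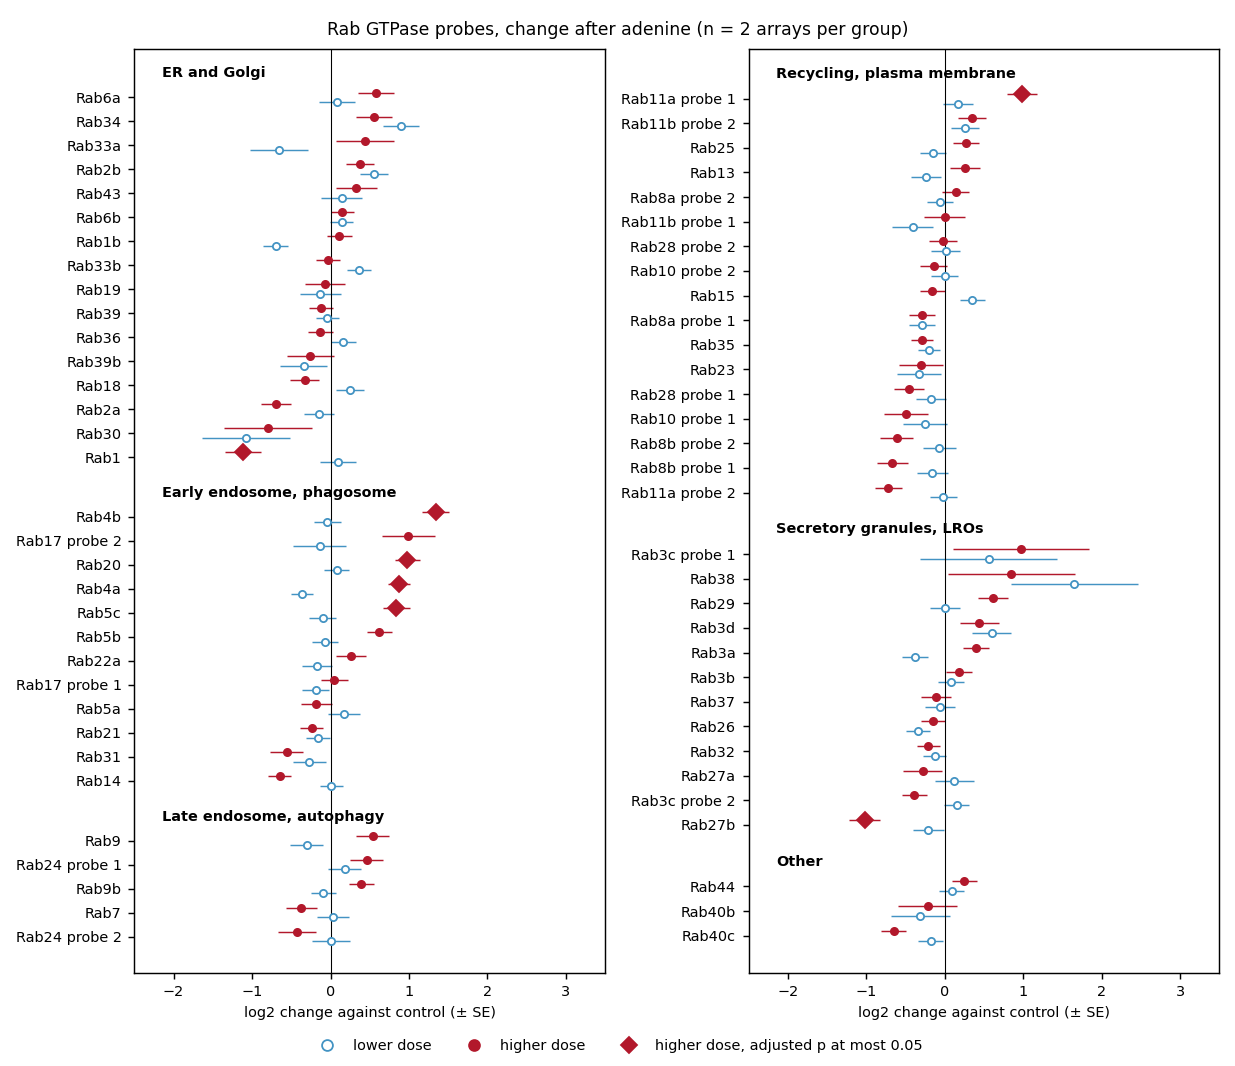
Change of each of the 65 Rab probes against control on the log2 scale (x axis, ± SE, n = 2 arrays per group) at the higher dose (filled) and the lower dose (open), by the membrane each Rab is known for. LROs are lysosome-related organelles. Diamonds mark the 7 probes past an adjusted p of 0.05 at the higher dose, 4 of them in the early endosome group.

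The early endosome and phagosome group held the most calls: 4 of its 12 probes (11 genes) rose and none fell, with a median change of 0.44 and a range of -0.65 to 1.34. That is 33.3% of the group, beside 10.6% of all probes and 17.0% of those above the median probe. In the other groups the share was 0.0% to 8.33%. The group was put together with results of these data known, and the share is given without a test. It also depends on placing Rab4a and Rab4b here, since both serve return to the cell surface and could stand among the recycling Rabs.

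Promoters of 3 of these 4 genes are in RefSeq's table for GRCm38.p6, from 250 bases before to 50 after the start site, on the minus strand. They are shown because these genes rose together, with capitals for 3 short motifs on either strand, described after them:
Rab4b, chr7:27178834-27179133: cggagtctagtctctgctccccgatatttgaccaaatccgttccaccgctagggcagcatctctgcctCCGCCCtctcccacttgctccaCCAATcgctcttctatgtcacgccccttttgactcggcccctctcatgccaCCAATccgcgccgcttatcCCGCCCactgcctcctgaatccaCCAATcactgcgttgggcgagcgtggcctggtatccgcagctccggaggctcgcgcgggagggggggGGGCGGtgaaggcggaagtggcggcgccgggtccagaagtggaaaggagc
Rab5c, chr11:100738166-100738465: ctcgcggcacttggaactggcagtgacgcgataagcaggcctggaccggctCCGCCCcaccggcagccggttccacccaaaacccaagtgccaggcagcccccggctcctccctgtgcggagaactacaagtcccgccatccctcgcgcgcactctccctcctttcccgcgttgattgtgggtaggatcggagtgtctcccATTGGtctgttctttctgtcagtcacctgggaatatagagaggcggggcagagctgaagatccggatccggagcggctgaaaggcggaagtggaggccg
Rab20, chr8:11478591-11478890: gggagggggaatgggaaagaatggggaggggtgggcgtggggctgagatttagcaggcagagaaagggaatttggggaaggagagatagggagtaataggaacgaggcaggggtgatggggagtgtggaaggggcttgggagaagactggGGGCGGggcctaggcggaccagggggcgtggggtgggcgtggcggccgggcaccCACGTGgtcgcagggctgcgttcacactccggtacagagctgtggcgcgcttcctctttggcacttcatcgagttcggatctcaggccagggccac
CCAAT, searched as the others on both strands, occurs 3 times in the Rab4b promoter, 1 time in that of Rab5c and 0 times in that of Rab20. GGGCGG occurs 3 times, 1 time and 1 time in the same order, and CACGTG only in that of Rab20, 1 time. No 2 of these matches overlap. Over the 57 promoters listed for 45 of the Rab genes, 43.9% hold CCAAT, 66.7% GGGCGG and 10.5% CACGTG, against 37.4%, 35.7% and 7.15% of all 32851 promoters in the table. TGACGTCA, also searched, occurs in none of the 3, in 3.51% of Rab promoters and in 1.79% of all. The motifs were picked after these sequences had been seen, and a match is no evidence of binding.

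Rab4a and Rab4b share the quick return route from early endosomes to the cell surface. Rab4b read 1285 and 1180 units in control cells, 1125 and 1278 units at the lower dose, and 3360 and 2901 units at the higher dose. Only the higher-dose arrays were high, and they did not overlap any other (log2 change against control 1.34 ± 0.17, 2.54-fold, adjusted p = 0.0204 by limma). It passed in 11 of 16 alternative fits, with a change between 1.21 and 1.43 (adjusted p from 0.000166 to 0.124). Of the other calls, Rab27b passed in 9 of these 16, Rab11a probe 1 in 8, Rab4a, Rab20 and Rab5c in 7 each, and Rab1 in 5 of 15. Rab4a read 599 and 645 units in control cells, 492 and 476 units at the lower dose, and 1128 and 1142 units at the higher dose. The higher-dose arrays again stood above all others, and the lower-dose arrays were the lowest of the 6 (0.87 ± 0.14 against control, 1.83-fold, adjusted p = 0.0292 by limma).

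The Rab5 proteins drive fusion of early endosomes, and their transcripts did not share one result. Rab5c had 1762 and 1617 units in control cells, 1450 and 1709 units at the lower dose, and 3250 and 2822 units at the higher dose. It rose, with no overlap (0.84 ± 0.17, 1.79-fold, adjusted p = 0.0445 by limma). Rab5b had 250 and 222 units in control cells, 231 and 217 units at the lower dose, and 386 and 339 units at the higher dose. Its groups were also separate, but it missed the threshold (0.62 ± 0.16, adjusted p = 0.0737 by limma). For Rab5a, 1067 and 1244 units in control cells and 1311 and 1282 units at the lower dose stood beside 886 and 1170 units at the higher dose. Those arrays overlapped between higher dose and control (-0.18 ± 0.20, adjusted p = 0.607 by limma). Whether the changes of Rab5a, Rab5b and Rab5c differ from each other was not tested.

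Rab20, a Rab of maturing phagosomes, had 1232 and 1136 units in control cells, 1175 and 1324 units at the lower dose, and 2495 and 2192 units at the higher dose. The higher-dose arrays were separate from all others (0.98 ± 0.16, 1.98-fold, adjusted p = 0.0296 by limma). Other members of the group had lower values at the higher dose without passing. Rab14, which links the Golgi with endosomes, had 6041 and 5245 units at the higher dose, against 9038 and 8662 units in control cells (-0.65 ± 0.15, adjusted p = 0.0592 by limma). Rab31, known for traffic from the trans-Golgi to endosomes, had 7298 and 6157 units at the higher dose, against 10373 and 9368 units in control cells (-0.56 ± 0.21, adjusted p = 0.154). Rab21 and Rab22a changed by -0.24 and 0.26, and the Rab17 probes by 0.05 and 0.99, none of them past the threshold (smallest adjusted p 0.126 by limma).

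**Figure D2:**
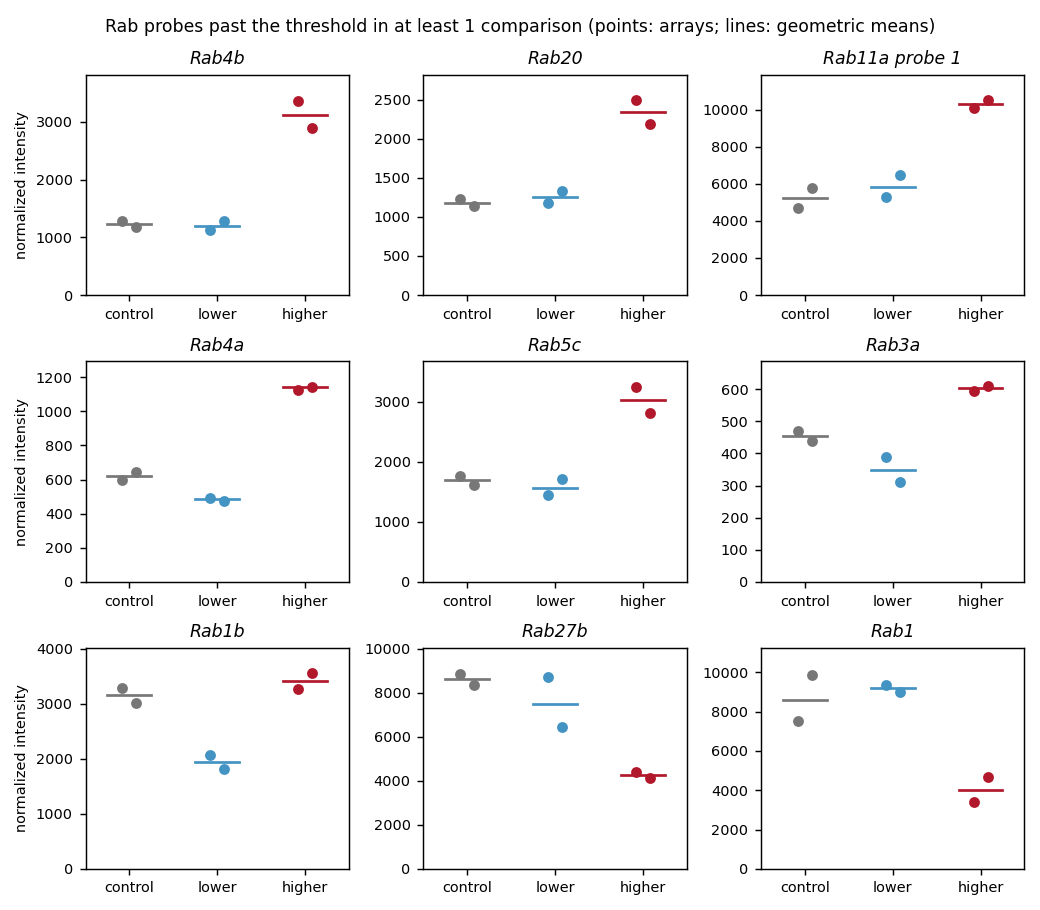
Normalized intensity per array (y axis, linear scale) of the 9 Rab probes that passed the threshold in at least 1 of the 3 comparisons. Points are single arrays, 2 per group, in the order of dose; the higher-dose arrays of Rab4b lie at 2901 and 3360 units and those of Rab1 at 3417 and 4659 units.

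Recycling and plasma membrane Rabs took in 17 probes for 11 genes, of which 1 rose and none fell (median -0.16, range -0.72 to 0.98). Rab11a, the Rab of the recycling endosome, has 2 probes that went opposite ways. Probe 1 read 4704 and 5760 units in control cells, 5276 and 6468 units at the lower dose, and 10090 and 10514 units at the higher dose. Its higher-dose values were above all others (0.98 ± 0.19, 1.98-fold, adjusted p = 0.0392 by limma). Probe 2 read 2588 and 2108 units in control cells, 2256 and 2365 units at the lower dose, and 1420 and 1414 units at the higher dose. Its higher-dose values were below all others (-0.72 ± 0.17, adjusted p = 0.0573 by limma). The changes of the 2 probes lay 1.71 apart, and with arrays scaled to equal medians both passed, one higher and one lower. No direction is therefore given for the Rab11a gene.

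The 2 probes of Rab11b, a close relative of Rab11a, changed by -0.00 ± 0.26 and 0.35 ± 0.18 at the higher dose against control (adjusted p = 0.995 and 0.268 by limma). Probe 1 had 3190 and 4374 units at the higher dose, against 3087 and 4545 units in control cells, and the groups overlapped. Probe 2 had 544 and 636 units at the higher dose, against 440 and 485 units in control cells, without overlap. Both probes of Rab8b, a Rab of exocytosis and cilia, changed by -0.67 ± 0.20 and -0.61 ± 0.21, and neither passed. The rest of the group, Rab8a, Rab10, Rab13, Rab15, Rab23, Rab25, Rab28 and Rab35, lay between -0.49 and 0.27.

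Probes of the same gene often differed on this array. Of the 9 Rab genes with 2 probes, 5 had changes of opposite sign at the higher dose (55.6%), namely Rab3c, Rab8a, Rab11a, Rab11b and Rab24. For Rab11b the sign rests on probe 1, whose change was -0.00 ± 0.26. Among all 1970 genes with 2 probes the share was 37.8%, and among the 848 with both probes above the median probe it was 27.2%. The latter is not a like set, since Rab3c, Rab17 and Rab24 each have a probe that is not above the median probe. Between the 2 probes of a Rab gene the median absolute difference was 0.45, beside 0.46 over all genes with 2 probes. A gap at least as wide as that of Rab11a was found in 124 of these genes, or 6.29%.

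**Figure D3:**
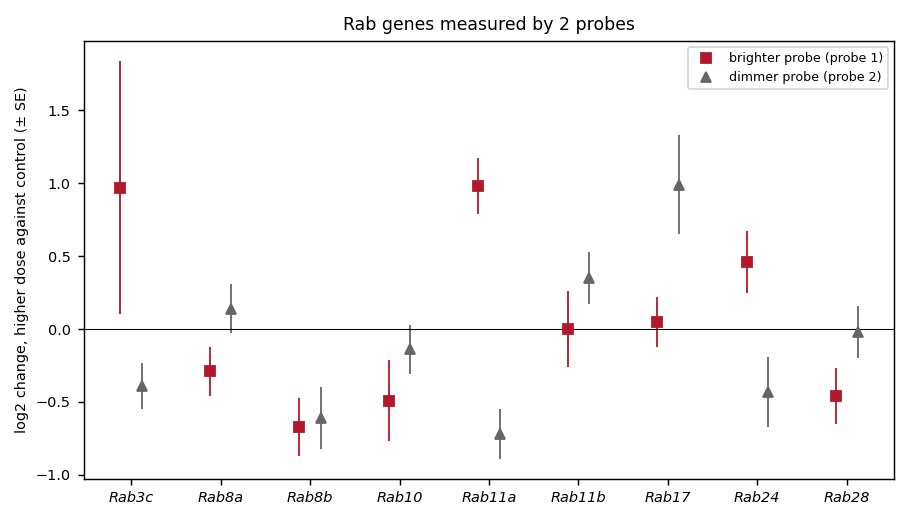
Change at the higher dose against control (y axis, log2, ± SE from limma, n = 2 arrays per group) of both probes of the 9 Rab genes with 2 probes, the brighter as squares and the dimmer as triangles. The Rab11a probes lie at 0.98 and -0.72, and those of Rab8b at -0.67 and -0.61.

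Among the 16 Rabs of the endoplasmic reticulum and Golgi, 1 probe fell and none rose (median -0.05, range -1.11 to 0.58). Rab1, named so by the platform, carries vesicles from the endoplasmic reticulum to the Golgi. Its symbol is an older name of Rab1a and also of Rnase4, so that its gene is not certain. The probe read 7508 and 9889 units in control cells, 9368 and 9018 units at the lower dose, and 3417 and 4659 units at the higher dose. It fell, with all higher-dose values below the others (-1.11 ± 0.23, 2.16-fold lower, adjusted p = 0.0461 by limma). Rab1b, its close relative with the same route, had 3268 and 3556 units at the higher dose, against 3294 and 3010 units in control cells, and these overlapped (0.11 ± 0.16, adjusted p = 0.685 by limma). Rab2a, which acts between the same compartments, had 3629 and 3271 units at the higher dose, against 5872 and 5263 units in control cells (-0.69 ± 0.19, adjusted p = 0.0774). Rab6a, a Rab of traffic within and out of the Golgi, was at the upper end of the group without passing (0.58 ± 0.23, adjusted p = 0.173 by limma). Rab2b, Rab6b, Rab18, Rab19, Rab30, Rab33a, Rab33b, Rab34, Rab36, Rab39, Rab39b and Rab43 ranged from -0.80 to 0.55, with none past the threshold. The lower end is Rab30 (± 0.56), which was near the floor, at 3.83 to 13.7 units over the 6 arrays.

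Late endosomal and autophagic Rabs, 5 probes for 4 genes, gave no call (median 0.39, range -0.43 to 0.54). Rab7, which brings late endosomes and phagosomes to lysosomes, had 9095 and 12142 units in control cells, 10209 and 11294 units at the lower dose, and 7935 and 8319 units at the higher dose. The higher-dose arrays were the lowest, but the probe did not pass (-0.37 ± 0.20, adjusted p = 0.287 by limma). Rab9, which returns receptors from late endosomes to the trans-Golgi, had 4973 and 4513 units at the higher dose, against 3768 and 2822 units in control cells (0.54 ± 0.21, adjusted p = 0.169). Rab9b changed by 0.39, and the 2 probes of Rab24, a Rab linked to autophagy, by 0.46 and -0.43.

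In the group of secretory granules and lysosome-related organelles, 1 of 12 probes (11 genes) fell and none rose (median 0.03, range -1.02 to 0.97). Rab27b, which docks secretory vesicles at the plasma membrane and takes part in exosome release, read 8870 and 8369 units in control cells, 8700 and 6419 units at the lower dose, and 4411 and 4107 units at the higher dose. It fell, and only its higher-dose arrays were low (-1.02 ± 0.20, 2.02-fold lower, adjusted p = 0.0401 by limma). Rab27a, the other Rab27, lay below the median probe, with 85.5 and 101 units at the higher dose, against 108 and 118 units in control cells (-0.28 ± 0.25, adjusted p = 0.508 by limma). Rab32, a Rab of lysosome-related organelles, had 4656 and 4829 units at the higher dose, against 5182 and 5775 units in control cells, separate groups that did not pass (-0.21 ± 0.15, adjusted p = 0.436). Rab29, known for its tie to the kinase Lrrk2, changed by 0.61 ± 0.19 (adjusted p = 0.110 by limma). Rab3a, Rab3b, Rab3c, Rab3d, Rab26, Rab37 and Rab38 lay between -0.39 and 0.97. The upper end is Rab3c probe 1 (± 0.87), whose control arrays read 57.6 and 260 units. Rab38 was near the floor, at 1 to 9.83 units over the 6 arrays, with 1 deposited value under 1, and no order is read from it. The remaining members, Rab40b, Rab40c and Rab44, lay between -0.65 and 0.25 and did not pass.

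The lower dose against control gave no call among the 65 Rab probes, while 0.0114% of all probes (3 in number, none of them a Rab) passed. The Rab median was -0.06, beside -0.00 for all probes, and the smallest adjusted p was 0.764 by limma. At an unadjusted p under 0.05 by limma there were 3 of the 65 Rab probes, beside 1681 of all 26423 probes. The Rab share was thus no higher than that of all probes. Rab1b had 2064 and 1819 units at the lower dose, against 3294 and 3010 units in control cells (-0.70 ± 0.16, adjusted p = 0.764 by limma). Rab2b, a Golgi Rab, had 1329 and 1692 units at the lower dose, against 988 and 1069 units in control cells (0.55 ± 0.18), and Rab34, known for lysosome positioning, had 140 and 162 units, against 68.8 and 95 units (0.90 ± 0.23). None of these groups overlapped, and none passed after adjustment. In all, 23 Rab probes had separate groups (11 higher, 12 lower), or fewer than the 46 at the higher dose against control (23 higher, 23 lower). Over all probes 35.0% were separate at the lower dose and 60.1% at the higher dose.

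At the higher dose against the lower dose, 6 Rab probes were higher and 1 lower, again 10.8% of 65. Of all probes 13.7% passed, with 6.78% higher and 6.95% lower. Among those above the median probe, 14.0% of the Rab probes and 21.9% of all passed. Rab4b (1.38 ± 0.17, 2.60-fold, adjusted p = 0.0186), Rab4a (1.23 ± 0.14, 2.35-fold, 0.0180), Rab5c (0.94 ± 0.17, 1.92-fold, 0.0316) and Rab20 (0.91 ± 0.16, 1.87-fold, 0.0305) were higher by limma, and Rab1 was lower (-1.20 ± 0.23, 2.30-fold lower, adjusted p = 0.0347). This comparison shares its higher-dose arrays with the one against control, and its values are no second support for it. Rab11a probe 1 (0.82 ± 0.19, adjusted p = 0.0507 by limma) and Rab27b (-0.81 ± 0.20, adjusted p = 0.0561) missed the threshold here.

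A pair of Rabs passed between the doses without passing against control. Rab1b had 3268 and 3556 units at the higher dose, against 2064 and 1819 units at the lower dose (0.82 ± 0.16, 1.76-fold, adjusted p = 0.0358 by limma). Its lower-dose arrays were the ones that stood apart, below control and higher dose alike. Rab3a, a Rab of regulated secretion best known from synaptic vesicles, had 471 and 439 units in control cells, 389 and 312 units at the lower dose, and 595 and 609 units at the higher dose (0.79 ± 0.17 between the doses, 1.73-fold, adjusted p = 0.0450 by limma). With values as deposited 2 Rab probes were higher and 3 lower between the doses, beside 1127 higher and 2965 lower of all probes. The median of all probes was then -0.25. Without 1 array calls dropped over all probes as over Rab probes, and the Rab1b change between the doses ranged from 0.73 to 0.91.

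The genes that act on Rabs were read from 4 lists, with the brightest probe for each gene. In the prenylation and GDP dissociation list 7 of 8 genes were measured, all 7 above the median probe. At the higher dose against control 1 rose and 1 fell (median -0.21). That is 28.6% of only 7 genes, beside 10.6% of all probes and 17.0% of those above the median. Rabac1, which helps release Rabs from their dissociation inhibitor at membranes, read 2180 and 2388 units in control cells, 2150 and 2600 units at the lower dose, and 6322 and 6932 units at the higher dose. It rose 2.90-fold with no overlap (1.54 ± 0.17, adjusted p = 0.0199 by limma). Gdi2, a GDP dissociation inhibitor, fell (-0.65 ± 0.14, 1.57-fold lower, adjusted p = 0.0492), with 41635 and 40378 units at the higher dose, against 63815 and 64838 units in control cells. The control values lie near the ceiling of the scanner, which can compress its change.

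Of 50 listed exchange factors 46 were measured, 42 of them above the median probe. At the higher dose against control 4 were higher and 5 lower (median -0.18), or 19.6%, beside the 10.6% of all probes and 17.0% of those above the median. The 3 that rose with the smallest p code for subunits of the TRAPP complexes, which activate Rab1 and Rab11 family members: Trappc2l (1.89 ± 0.24, 3.71-fold), Trappc6a (1.27 ± 0.19, 2.41-fold) and Trappc1 (0.93 ± 0.18, 1.90-fold), with adjusted p of 0.0207, 0.0255 and 0.0383 by limma. Of 14 listed TRAPP subunits 11 were measured, 5 with a positive and 6 with a negative change, and Trappc12 (-1.02 ± 0.23, adjusted p = 0.0540) and Trappc11 (-0.74 ± 0.23, adjusted p = 0.104) were at the low end. Between the doses 4 of the 11 passed as higher (Trappc1, Trappc2l, Trappc4 and Trappc6a). Trappc12 alone passed as lower (-1.35 ± 0.23, adjusted p = 0.0276 by limma). Together they are 45.5% of the 11, beside 13.7% of all probes and 21.9% of those above the median. Against control the share was 27.3%, beside 10.6% and 17.0%. The TRAPP subunits were no list of their own and were set apart after their values were seen. Both shares are given without a test. Sh3bp5, an exchange factor for Rab11, fell (-1.48 ± 0.19, 2.79-fold lower, adjusted p = 0.0207 by limma), with 419 and 391 units at the higher dose, against 1229 and 1042 units in control cells. Hps4, part of the exchange factor for Rab32 and Rab38, fell 2.11-fold (-1.08 ± 0.15, adjusted p = 0.0239), and Rpgr, a ciliary protein tied to Rab8a, fell 2.17-fold (-1.12 ± 0.20, adjusted p = 0.0328).

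Of 38 listed GTPase-activating proteins 37 were measured (28 above the median probe), with 2 higher and 2 lower (median -0.17), or 10.8%, about the share of all probes. Tbc1d24, which has a TBC domain and is known from inherited epilepsies, rose to 410 and 398 units at the higher dose, against 100 and 110 units in control cells (1.95 ± 0.20, 3.85-fold, adjusted p = 0.0198 by limma). Tbc1d13, which acts on Rab35, rose 1.73-fold (0.79 ± 0.14, adjusted p = 0.0337). Tbc1d15, which acts on Rab7, fell 2.04-fold (-1.03 ± 0.15, adjusted p = 0.0256 by limma), and Usp6nl, which acts on Rab5, fell 1.70-fold (-0.76 ± 0.16, adjusted p = 0.0483).

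Of 58 effectors 47 were measured (37 above the median probe), 1 higher and 5 lower, or 12.8%, which lies between the 10.6% of all probes and the 17.0% of those above the median. Their median was -0.35, beside -0.01 over all probes and -0.05 over those above the median. Ocrl, an inositol phosphatase that binds several Rabs, rose 1.58-fold (0.66 ± 0.14, adjusted p = 0.0483 by limma). Exph5, an effector of Rab27, is counted among the lower ones (adjusted p = 0.0186 by limma), but no fold is given, since it lay near the floor with 8.67 and 9.67 units at the higher dose, against 47 and 37.5 units in control cells. Exoc6, an exocyst subunit that binds Rab11, fell 2.36-fold (-1.24 ± 0.16, adjusted p = 0.0204), and Vps13b, a Golgi protein that binds Rab6, fell 1.80-fold (-0.85 ± 0.16, adjusted p = 0.0351). At the lower dose against control no gene of the 4 lists passed, and their medians lay between -0.01 and 0.01. Between the doses, 5 exchange factors were higher and 9 lower, 3 GTPase-activating proteins higher and 4 lower, and 0 effectors higher and 8 lower. These are 30.4%, 18.9% and 17.0% of the 3 lists, beside 13.7% of all probes and 21.9% of those above the median. The prenylation list again had 1 of each, or 28.6% of its 7 genes.

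**Figure D4:**
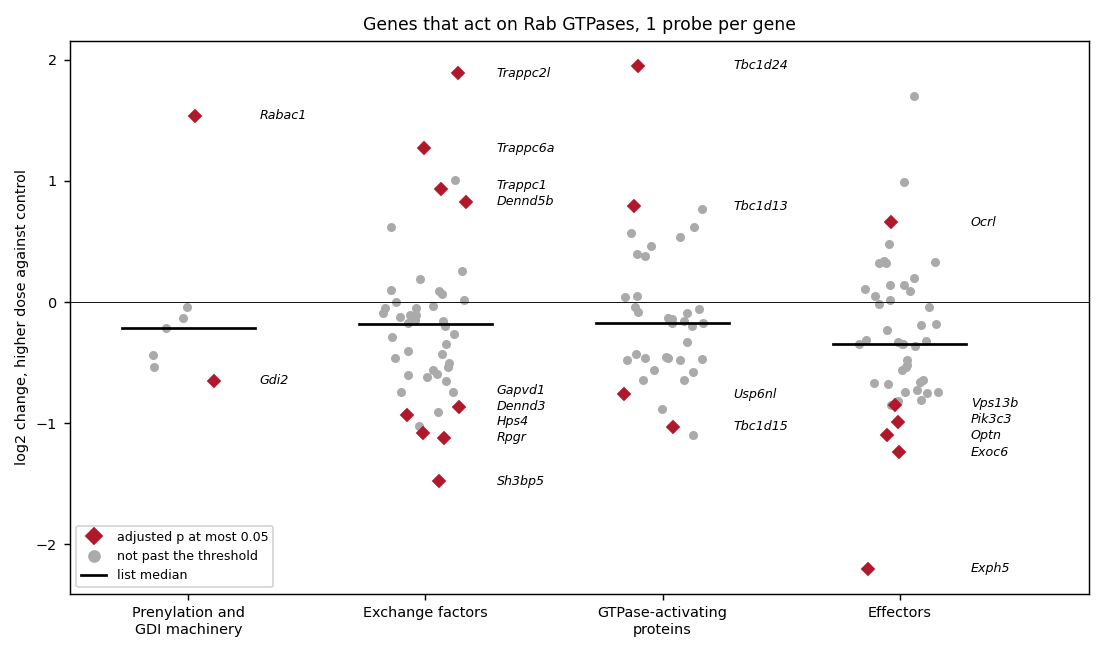
Change at the higher dose against control (y axis, log2) of genes in 4 lists that act on Rab GTPases, 1 point per gene by its brightest probe, with bars at the list medians of -0.21, -0.18, -0.17 and -0.35. Genes past an adjusted p of 0.05 are diamonds with names; sideways spread within a list has no meaning.

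Other measures moved with the higher dose beside the Rab values. The summed level of the 10 microglial and macrophage markers was 133141 and 150840 units at the higher dose, against 83403 and 88694 units in control cells, carried mostly by the bright probes of Cd68, Fcer1g and Trem2. Of the 10, 3 rose, beside 5.55% of all probes, namely Aif1 (log2 change 2.07), Fcer1g (1.20) and Itgam (0.77). Trem2 (1.14, adjusted p = 0.0567 by limma), Cd68 (0.64, adjusted p = 0.130) and Spi1 (0.35) had positive changes that did not pass. Cd68 read 64073 units on 1 higher-dose array, near the ceiling of the scanner. The other 4 had negative changes that did not pass, namely Csf1r (-0.48), Irf8 (-0.29), Ptprc (-0.14) and Cx3cr1 (-0.13). Summed markers of endothelium (4 of 4 measured) were 1768 and 2062 units at the higher dose, against 2449 and 2651 units in control cells, nearly all of it Kdr (-0.48), while Pecam1 gave 0.16, Tek 0.11 and Cdh5 -0.03. Those of lymphocytes (3 of 4) were 1027 and 1065 units, against 741 and 807 units. Neuronal markers (3 of 5) summed to 545 and 594 units, against 441 and 500 units, and those of astrocytes (4 of 5) and oligodendrocytes (4 of 5) overlapped between these groups. No gene of the 5 lists of other cell types passed at the higher dose against control. Among them the astrocyte transporter Slc1a3 was at the floor of 1 unit on both higher-dose arrays and 1 control array. All samples are of 1 cell line, BV2, so the marker sums are not read as numbers of cells of each kind. The part of the marker values in the Rab changes was not tested.

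Gene span also moved with the higher dose. Over 10267 genes above the median probe the change against control had a Spearman correlation with span of -0.326, and the lower-dose change one of 0.0608. This is a description across genes, which share arrays and are not replicates. Rab4b, Rab20, Rab4a, Rab5c and Rab11a span 10.5, 25.3, 29.4, 23.2 and 22.5 kb, while Rab27b spans 163 kb. After the span trend was removed from each array, 6 of 64 Rab probes passed (5 higher, 1 lower), all of them among the 7. Rab4b then changed by 1.29, Rab20 by 1.06, Rab4a by 0.97, Rab5c by 0.91, Rab11a probe 1 by 1.05 and Rab27b by -0.87. Rab1 has no span assigned and was not in that fit.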

How the data were processed

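RNA of 6 BV2 samples was labelled with Cy5 and hybridised to Phalanx mouse OneArrays, per the labels. The deposited values are intensities on a linear scale, some below 0. RMA is named in the submitters' processing notes, but the deposited medians differ between arrays, so the values were treated as not normalized. Scanner, background method and genome build: not given in the sources used here. Arrays were quantile-normalized, values under 1 set to 1 and log2 taken. limma 3.58.1 (R 4.3.3) fitted 1 mean for each group to all 6 arrays, which left 3 residual degrees of freedom. Its eBayes p-values are two-sided and Benjamini-Hochberg adjusted over 26423 probes, with a threshold of 0.05. The fit was first tested on simulated data. The number of arrays limits the precision.

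Symbols of the old platform annotation were updated through RefSeq's table for GRCm38.p6, which renamed 2 Rab probes (to Rab6a and Rab29). Promoters and spans come from the same source. Values are given for every Rab probe past the threshold in any comparison, a fixed set (Rab1, Rab1b, the Rab5, Rab11 and Rab27 genes, Rab7 and Rab32), further members near their group's ends (also Rab2b and Rab34) and Trappc11 and Trappc12, added after their values were seen, and at most 3 genes per direction and list. Members and lists were chosen with earlier results of these data known. Alternatives were no normalization, equal medians, log2(value + 16), probes above the median, array weights, a trended prior, a replicate block, only the groups compared, removal of the span trend, 1 probe per gene and leaving out each array.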

Additional observations from a re-analysis of the deposited data

How the results depend on the processing

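Several alternatives use the same normalized values, so the log2 changes stayed those of the main fit and only the p-values could move. These are probes above the median, 1 probe per gene, a trended prior, array weights, a replicate block and only the groups compared. The number of Rab calls moved between alternatives. Calls over all probes moved as well. At the higher dose against control these were 1466 higher and 1337 lower in the main fit. They were 2261 and 2501 with log2(value + 16), and 2301 and 2699 with a trended prior. With only probes above the median intensity they were 2539 and 2985 of 13211. No normalization gave 1195 and 943, and only the groups compared 942 and 642. Between the doses the main fit gave 1792 higher and 1837 lower over all probes, and only the groups compared 2 and 5. There log2(value + 16) gave 2673 and 2989, and a trended prior 2669 and 3093. Probes above the median intensity gave 2920 and 3243 of 13211. With 1 probe per gene the counts were 1728 and 1795 of 17742, and with no normalization 1127 and 2965. At the higher dose against control, 7 Rab probes passed. The count was 2 with no normalization, 13 with log2(value + 16), 18 of 50 with only probes above the median intensity, 15 with a trended prior, 2 with only the groups compared, and 0 to 2 when 1 array was left out. Between the higher and the lower dose, 7 passed. There the count was 16 with log2(value + 16), 22 of 50 with probes above the median intensity, 17 with a trended prior, 0 with only the groups compared, 12 of 56 with 1 probe per gene, and 0 in each fit without 1 array. Equal medians, array weights and removal of the span trend left both counts within 1.5 times, though not the same probes: with equal medians 5 of the 7 calls against control (not Rab1 and Rab27b) and 4 of the 7 between the doses (not Rab1, Rab1b and Rab3a) were shared, and with the span trend removed 5 of the 7 between the doses (not Rab3a, nor Rab1, which was not in that fit). The count with 1 probe per gene against control and that with no normalization between the doses were also within 1.5 times. The lower dose against control gave 0 in every fit.

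With the replicate block the counts were 0 at the higher dose against control and 2 (Rab4a and Rab4b) between the doses. Over all probes that fit gave 4 higher and 7 lower at the higher dose against control. Between the doses it gave 753 higher and 642 lower. Same-numbered arrays share only a number: their deviations correlated at 0.0326 (lower dose and control), 0.313 (higher dose and control) and -0.226 (higher and lower dose).

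None of the 14 called values changed sign under any alternative. Only alternatives that change the values or leave out an array could turn a sign. Signs turned in 13 of 51 values, none of them called and the cause not tested. At the lower dose against control these were Rab1 (-0.01), Rab20 (-0.02) and Rab7 (-0.08) with equal medians, and Rab11a probe 2 (0.16), Rab32 (0.04), Rab4b (0.12), Rab5b (0.18) and Rab5c (0.07) with no normalization, which moved the median of all probes to 0.22. At the higher dose, Rab11b probe 1 gave 0.01 with no normalization and 0.03 with the span trend removed against control, and Rab11b probe 2 gave -0.16 with no normalization between the doses. Without 1 array, the lower dose against control ranged from -0.11 to 0.30 for Rab1, -0.16 to 0.13 for Rab11a probe 2, -0.01 to 0.16 for Rab20, -0.18 to 0.41 for Rab27a, -0.43 to 0.01 for Rab27b, -0.13 to 0.05 for Rab4b, -0.16 to 0.01 for Rab5b, -0.22 to 0.02 for Rab5c and -0.18 to 0.24 for Rab7. The higher dose against control ranged from -0.28 to 0.28 for Rab11b probe 1 and -0.38 to 0.02 for Rab5a, and the higher against the lower dose from -0.03 to 0.20 for Rab11b probe 2. Where an array was left out, the lone array of its group was assumed to vary like the others. Rab probes not above the median probe, 15 in number, limit what can be said of dim members.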

Other observations

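The array's probe identifiers start in 3 ways, and the Rab probes split unevenly over them. The 31 Rab probes whose identifiers start with PH had a median change of 0.25 at the higher dose against control, with 4 higher and 1 lower. The 31 that start with mMC had a median of -0.12, with 1 higher and 1 lower, and the 3 that start with mMR one of -0.24, with no call. Over all probes, those starting with PH gave 5.57% higher and 4.16% lower (17660 probes, median 0.01), those with mMC 5.84% and 6.30% (7590 probes, median -0.04), and those with mMR 3.41% and 10.6% (1173 probes, median -0.18). The Rab11a probe that rose starts with PH, and the other Rab11a probe with mMC. What the identifiers stand for is not known here, and their part in these changes was not tested.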
